A study of Rattus norvegicus with 12 samples.

Results

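Extrachromosomal circular DNA was compared between rat back skin that had received 4 weekly fractions of 5 Gy (5 Gy x4) and control skin. The groups were set by the sample titles, which gave 4 libraries of each kind, so 8 of the series' 12 libraries entered the comparison; the remaining 4, from skin given 2 fractions, helped to estimate the spread in the fits across length bins and genes. All animals were wild-type SD rats kept in a specific-pathogen-free facility. The irradiated skin received electron beam radiation and was sampled on day 7 after the last fraction. The labels do not say when the control skin was taken or whether it was handled like the irradiated skin. Nor do they say that each library came from its own rat. The p-values below therefore describe variation among these 8 libraries only, some of which may be technical. The total dose and the time since the first fraction cannot be told apart.

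Circle-seq enriches circular DNA, digests linear DNA with an exonuclease and sequences what remains. Circles shorter than a gene, usually called eccDNA, occur in normal and injured tissues, and their lengths often cluster near the length of DNA wrapped around 1 or more nucleosomes. Such small circles form from fragments whose ends are joined, and cell death, replication and the repair of strand breaks are known sources of fragments. Large circles that carry whole genes, usually called ecDNA, are best known from tumours. In skin taken in bulk, more circles per cell and more cells with circles cannot be told apart. No sequences of circles are printed here, since no genome of the build of these files (rn6) was used.

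The list held 228353 eccDNA over the whole series, of which 153532 had at least 1 supporting read in the 8 libraries. The 5 Gy x4 libraries listed 130513 of them and the control libraries 25632. Supporting reads, which are split reads over the junction plus supporting read pairs, ran from 34499 to 192858 in control libraries and from 181132 to 323201 in 5 Gy x4 libraries (exact p = 0.0857); the full sequencing depth is unknown. One control library stood apart: in control replicate 4, 34.2% of circles had a supporting read pair against 19.5% to 20.6% in the other control libraries, and 161 circles had a coverage under 5 against 2219 to 2469. Several results are therefore also given without it, but the numbers by coverage and by length class are not. The tests named exact are two-sided exact permutation tests over the 70 ways to assign the 8 libraries, whose smallest possible p is 0.0286. All 151 measures whose groups did not overlap reached that p, out of 317 measures tested, many of which overlap in content. Adjusted over all 317 (Benjamini-Hochberg), that p becomes 0.0600, so none of the exact tests passes an adjusted threshold of 0.05 over the whole set.

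Skin given 4 fractions held more listed circles, with the highest ratio among thinly covered ones. The control libraries listed 4795, 9445, 10389 and 3601 eccDNA, and the 5 Gy x4 libraries listed 22094, 44712, 46163 and 20124. Every 5 Gy x4 library lay above every control library, and the mean was 4.71-fold higher (exact p = 0.0286, adjusted 0.0442 over the 17 number measures, of which 11, or 64.7%, had groups that did not overlap). Without any 1 control library the groups still did not overlap, the difference ran from 4.05-fold to 5.59-fold, and p rose to at most 0.0857. At an equal 32211 supporting reads, the number of circles expected by sampling without replacement was 4794, 7181, 7611 and 3269 in control and 13727, 18678, 19887 and 12783 in 5 Gy x4, a difference of 2.85-fold (exact p = 0.0286).

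The deposited tables give each circle a mean coverage, the read depth over its length. With a coverage under 5, the control libraries held 2469, 2356, 2219 and 161 circles and the 5 Gy x4 libraries 10809, 24865, 33623 and 5000. That is a 10.3-fold difference (exact p = 0.0286), and the lowest 5 Gy x4 library lay above the highest control library. Circles with a coverage of at least 5 were also more numerous, by 2.80-fold (exact p = 0.0286). With a coverage of at least 20, control libraries held 1178, 3437, 4515 and 2829 circles and 5 Gy x4 libraries 1759, 2593, 1503 and 4980. Here the groups overlapped, and the ratio of 5 Gy x4 to control was 0.906 (exact p = 0.83). With at least 50, the ratio was 0.497, from 651, 1758, 2163 and 1743 circles in control and 639, 788, 736 and 977 in 5 Gy x4 (exact p = 0.114). Numbers at a coverage of at least 10 lay between, at a ratio of 1.71 (exact p = 0.171). These coverage limits were chosen after the data were seen. They are absolute, while the full sequencing depth of the libraries is unknown.

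**Figure D1:**
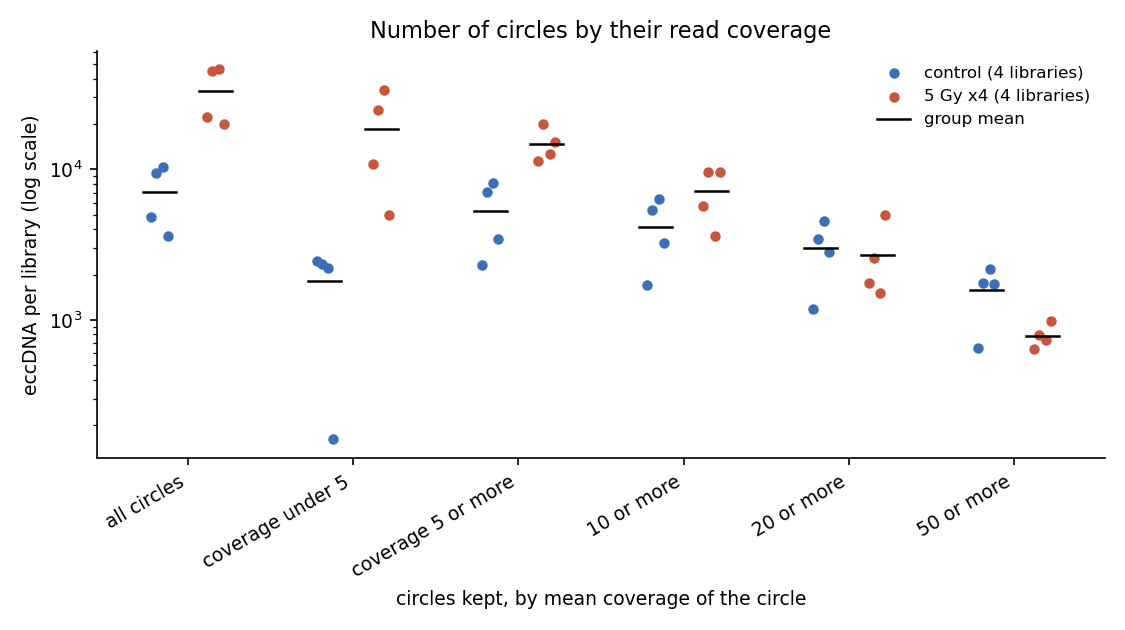
Number of eccDNA per library on a log scale, for all circles and for circles below or above given mean coverages; each point is 1 library and each line a group mean. The groups are apart for all circles and for coverage under 5 or of 5 or more, and overlap at 10 or more, where 5 Gy x4 libraries hold 3599 to 9651 circles and control libraries 1692 to 6371.

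Each entry also is labelled hconf, conf or lconf; these terms are not defined in the deposited tables. Entries labelled lconf made up 39.1%, 31.4%, 42.3% and 18.7% of control circles and 63.8%, 64.4%, 54.7% and 67.5% of 5 Gy x4 circles. Those labelled hconf made up 36.9%, 38.3%, 37.1% and 47.1% in control and 28.4%, 27.0%, 26.1% and 27.2% in 5 Gy x4. Both shares were apart between groups (exact p = 0.0286 each, adjusted 0.0494 over 19 measures of evidence, of which 11, or 57.9%, had groups that did not overlap). In number, hconf circles were 3.28-fold and lconf circles 8.25-fold higher in 5 Gy x4.

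The way reads supported a circle differed between the groups, while the number of reads per circle did not pass the test. The median circle had 2, 6, 10 and 16 supporting reads in control and 5, 4, 2 and 11 in 5 Gy x4 (exact p = 0.486), and the median circle score was 66.0, 156, 272 and 299.9 against 180, 150, 86 and 372 (exact p = 1). Neither measure separated the groups. Coverage per supporting read, the mean coverage of a circle divided by the reads that support it, had a median of 1.84, 1.87, 1.25 and 2.96 in control and 0.811, 0.783, 1.03 and 0.785 in 5 Gy x4. The groups did not overlap, at a ratio of 0.430 (exact p = 0.0286, adjusted 0.0494). It was lower in 5 Gy x4 in all 5 annotation types (10 of 15 measures of evidence by type, 66.7%, were apart) and on all 21 chromosomes, with no overlap on any chromosome (21 of 21, 100%). Circle score per split read ran the other way, at 39.0, 40.0, 41.0 and 35.0 in control and 43.4, 44.0, 43.0 and 44.0 in 5 Gy x4.

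Support by read pairs was rarer in 5 Gy x4. A supporting read pair was found for 20.6%, 19.8%, 19.5% and 34.2% of control circles and for 10.1%, 8.83%, 8.24% and 11.0% of 5 Gy x4 circles (ratio 0.405, exact p = 0.0286; 0.477 without control replicate 4). Read pairs made up 52.7%, 37.5%, 34.0% and 42.5% of the supporting reads in control and 16.8%, 12.4%, 17.6% and 14.2% in 5 Gy x4. No 5 Gy x4 library reached the lowest control library in either measure.

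The sizes of these differences varied over length classes, which was not itself tested. Among 54 measures of evidence by length class, 14 (25.9%) had groups that did not overlap. In circles of 420 to 599 bp, the median coverage was 18.6, 36.1, 40.6 and 60.5 in control and 4.44, 3.97, 2.86 and 4.95 in 5 Gy x4. In circles of 600 to 999 bp it was 33.3, 58.6, 79.8 and 76.1 in control and 5.60, 3.63, 2.72 and 11.5 in 5 Gy x4. Both classes were apart (exact p = 0.0286 each, adjusted 0.110), so the typical circle of these lengths was covered more deeply in every control library. A supporting read pair was found for 61.6%, 68.0%, 72.7% and 70.3% of control circles of 600 to 999 bp and for 46.1%, 31.0%, 32.6% and 48.4% of those in 5 Gy x4. By contrast, coverage per supporting read of circles of 330 to 419 bp was 0.931, 1.11, 0.823 and 2.57 in control and 0.735, 0.733, 0.874 and 0.729 in 5 Gy x4, which overlapped (exact p = 0.0571), and at 10000 bp or more its means were 1.69 ± 0.291 and 1.88 ± 0.724 (SD, n = 4 each). A column named coverage continuity, not defined in the tables, had a median of 0 in all 4 control libraries at 600 to 999 bp and of 0.403, 0.482, 0.353 and 0.376 in 5 Gy x4.

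**Figure D2:**
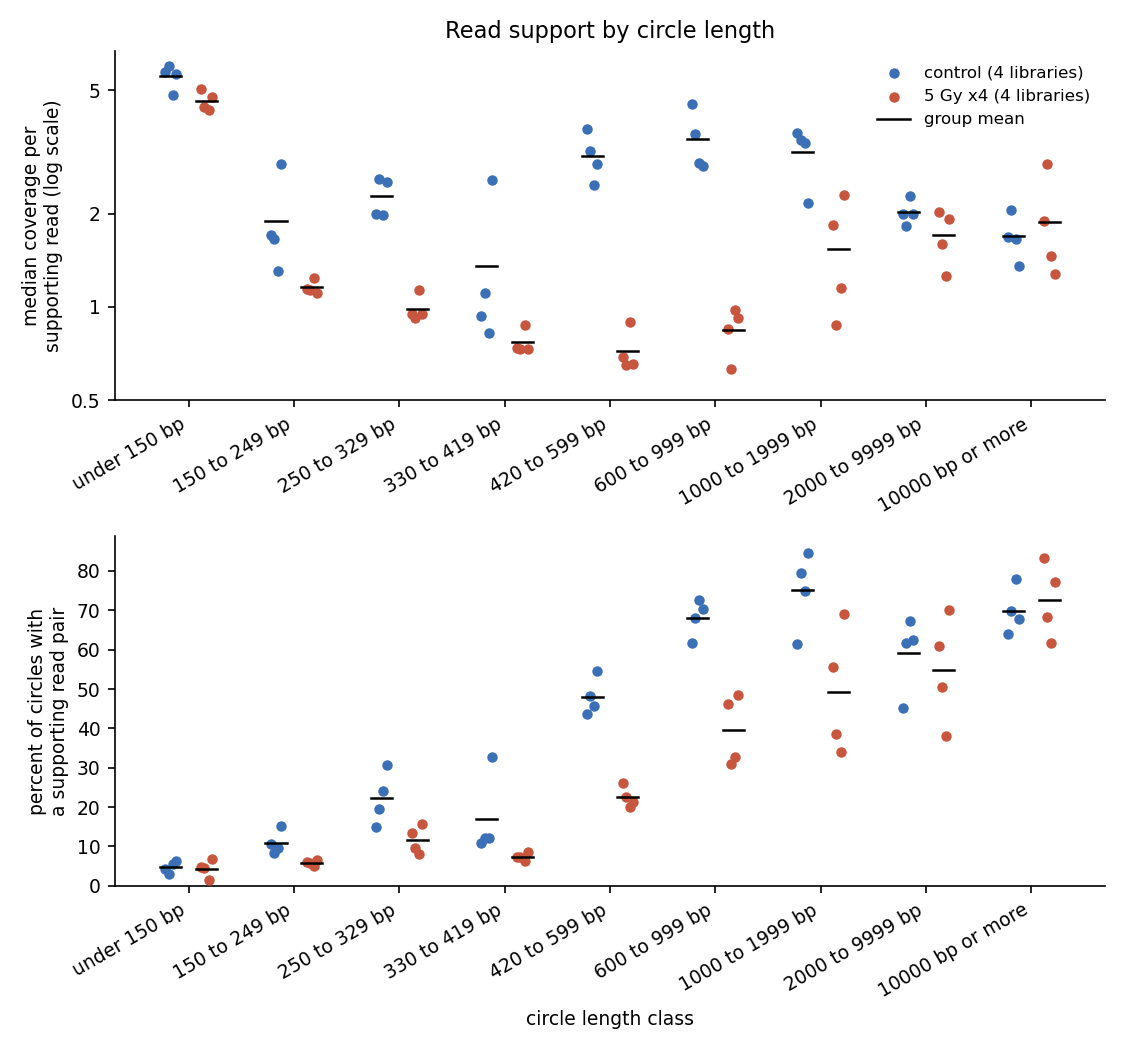
Median coverage per supporting read (upper panel, log scale) and percent of circles with a supporting read pair (lower panel) by length class; points are libraries and lines group means. The groups separate most at 420 to 999 bp, where coverage per read is 2.48 to 4.50 in control and 0.630 to 0.979 in 5 Gy x4, and come together at 10000 bp or more.

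Supporting reads were spread over more circles in 5 Gy x4. The 100 best supported circles of a library held 38.9%, 24.9%, 19.9% and 24.2% of its reads in control and 10.3%, 5.98%, 8.40% and 8.63% in 5 Gy x4. The highest 5 Gy x4 share lay under the lowest control share, at a ratio of 0.309 (exact p = 0.0286, adjusted 0.0343 over 12 read measures, of which 10, or 83.3%, had groups that did not overlap). A fixed 100 circles is a smaller part of the longer 5 Gy x4 lists, so this ratio depends on the number of circles listed. For the best supported 1 percent of a library's circles the ratio was 0.572 (exact p = 0.0286). Circles of 330 to 419 bp held 18.4%, 26.1%, 25.7% and 15.5% of reads in control and 49.2%, 57.7%, 57.1% and 48.0% in 5 Gy x4, a 2.48-fold difference. Circles of 600 to 999 bp fell from 16.1%, 13.4%, 12.3% and 15.2% of reads to 4.59%, 3.38%, 5.78% and 4.15%, with no overlap.

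**Figure D3:**
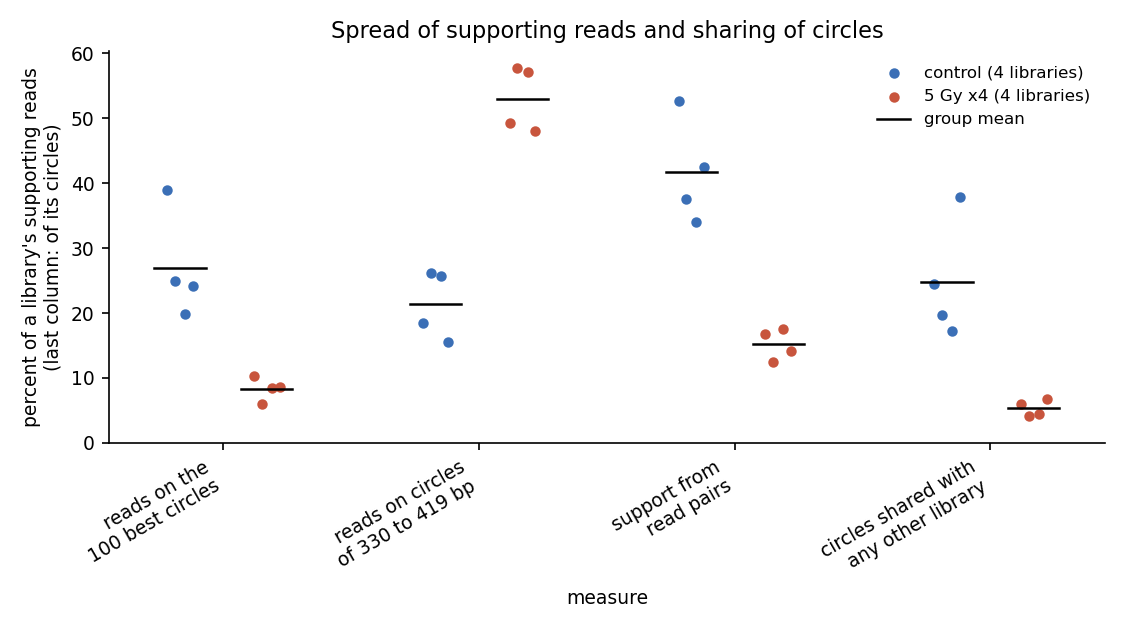
Share of supporting reads on the 100 best supported circles, on circles of 330 to 419 bp and from read pairs, and share of circles listed in any other of the 8 libraries, in percent; points are libraries and lines group means. In each column the groups are apart, and reads on circles of 330 to 419 bp are the only column in which 5 Gy x4 (48.0% to 57.7%) lies above control (15.5% to 26.1%).

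In length, 1 class grew in share and the others shrank. Circles of 330 to 419 bp made up 33.2%, 35.1%, 44.6% and 16.1% of control circles and 65.3%, 70.3%, 67.9% and 65.2% of 5 Gy x4 circles. Circles under 150 bp made up 8.97%, 7.90%, 6.17% and 14.8% in control and 1.60%, 0.883%, 1.37% and 1.48% in 5 Gy x4. The shares of all 9 length classes were apart (100%; exact p = 0.0286 each), and because shares sum to a whole the classes are not independent. In number, the 330 to 419 bp class was 8.93-fold higher, at 1590, 3316, 4630 and 579 circles in control and 14432, 31434, 31331 and 13125 in 5 Gy x4, while circles of 2000 to 9999 bp numbered 84, 110, 116 and 93 in control and 82, 77, 126 and 60 in 5 Gy x4 (exact p = 0.400).

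At equal supporting reads the classes moved in both directions, and 4 of 9 (44.4%) had groups that did not overlap. The expected number rose 5.59-fold for 330 to 419 bp and 2.18-fold for 150 to 249 bp. It was lower for circles under 150 bp, at 430, 523, 468 and 462 in control and 192, 168, 264 and 170.4 in 5 Gy x4 (ratio 0.422), and for circles of 2000 to 9999 bp (ratio 0.653). Each of these had exact p = 0.0286, adjusted 0.0643 over the 9 classes. Circles of 1000 to 1999 bp gave a ratio of 1.03 (exact p = 0.886).

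Finer bins showed the shape of this change. Of 89 bins of 10 bp between 100 and 999 bp that could be tested, 75 (84.3%) passed an adjusted p of 0.05 in edgeR's quasi-likelihood test of a bin's share of all eccDNA: 9 (10.1%) rose, and they were the 9 bins from 330 to 419 bp, and 66 (74.2%) fell. Scaling by trimmed means of the bins (TMM) moved the values by a median of 1.12 on the log2 scale and gave 18 higher and 27 lower, and DESeq2's size factors gave 19 and 17; the 9 bins were higher in all 3 scalings, and 17 bins were lower in all 3. The direction of many other bins therefore depends on the scaling. The largest rise was at 380 to 389 bp, which held 3.77% of control and 8.79% of 5 Gy x4 circles (log2 fold 1.21, SE 0.25, adjusted p = 7.78e-06). Scaled to all eccDNA, all 10 bins from 100 to 199 bp fell, and all 9 from 230 to 319 bp. The other scalings did not keep all of these falls. The bins at 230 to 239 bp and 310 to 319 bp were called higher with TMM (log2 fold 0.55 and 0.66) and with DESeq2 (0.69 and 0.79). Those at 180 to 189 bp and 190 to 199 bp were not called in either.

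The log2 fold change went up and down along the length axis. Relative to the bins within 50 bp on either side, it had local maxima at 210 to 219 bp (0.08), 380 to 389 bp (1.21), 570 to 579 bp (-0.71), 790 to 799 bp (-0.30) and 890 to 899 bp (-0.89), which are 170, 190, 220 and 100 bp apart and so not evenly spaced. Local minima between them lay at 280 to 289 bp (-2.27), 510 to 519 bp (-1.86), 660 to 669 bp (-2.14) and 860 to 869 bp (-2.65). The minimum at 280 to 289 bp held 1.42% of control and 0.291% of 5 Gy x4 circles. Bins above 700 bp held few circles, 6.5 per control library at 790 to 799 bp, and the maximum there did not pass the test (adjusted p = 0.566). This pattern was noticed in the data and is given as a description with no test.

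**Figure D4:**
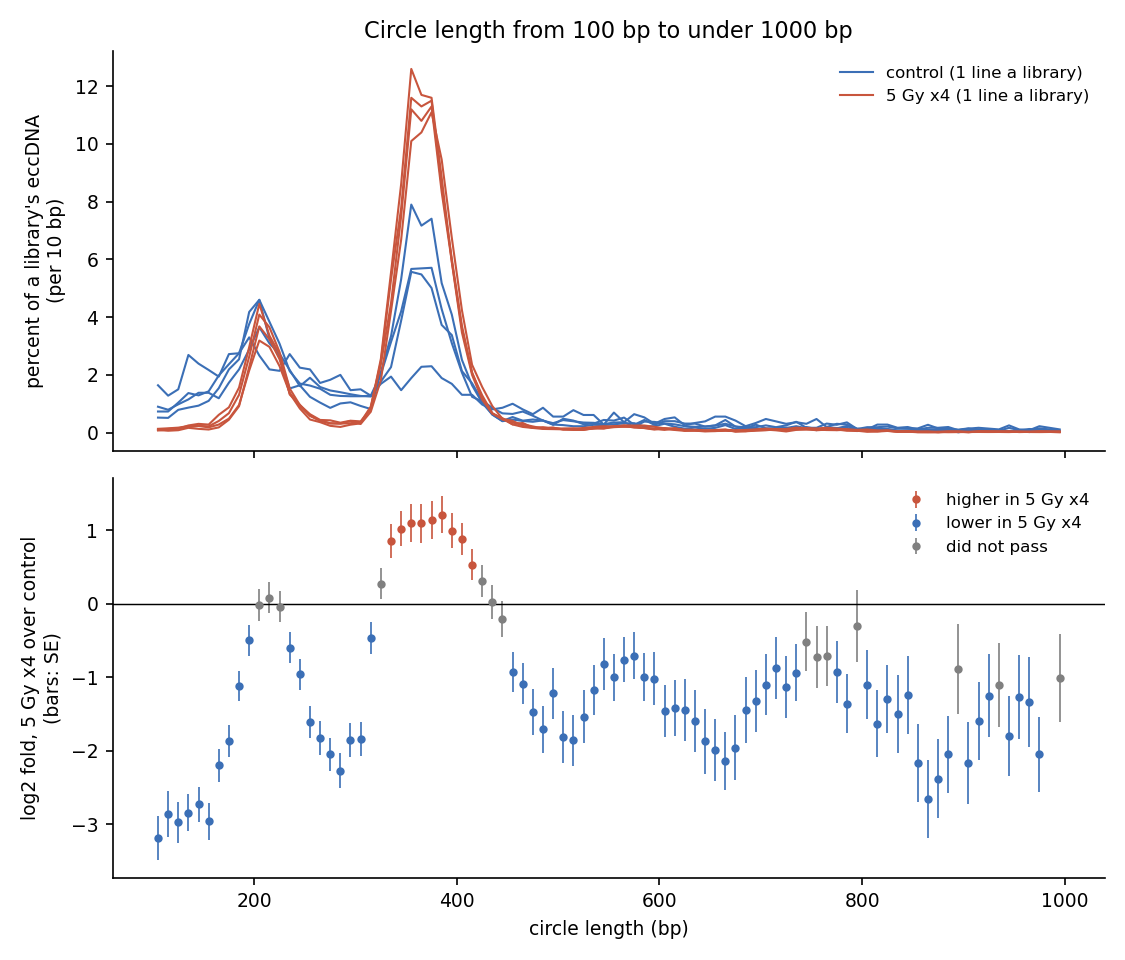
Percent of a library's eccDNA in each 10 bp bin from 100 to 999 bp (upper panel, 1 line a library) and the log2 fold of 5 Gy x4 over control per bin with its SE (lower panel). The 9 bins from 330 to 419 bp are the ones called higher when scaled to all eccDNA (18 with TMM and 19 with DESeq2); a few neighbours have positive folds that did not pass, such as 0.31 at 420 to 429 bp, and the fold is -2.27 at 280 to 289 bp.

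By annotation, all 5 types were higher in number, and exonic circles had the largest ratio. A circle was called exonic where it overlapped an exon, and upstream or downstream within 2 kb of a gene. Exonic circles numbered 179, 353, 396 and 85 in control and 1055, 2245, 2321 and 903 in 5 Gy x4, a 6.44-fold difference, against 4.53-fold for intronic and 4.72-fold for intergenic circles. As a share, exonic circles made up 3.73%, 3.74%, 3.81% and 2.36% in control and 4.78%, 5.02%, 5.03% and 4.49% in 5 Gy x4, and no value overlapped (exact p = 0.0286, adjusted 0.0408 over 10 type measures, 7 of them, or 70.0%, apart). The intronic share was lower, from 34.1%, 33.4%, 32.6% and 35.1% to 32.6%, 31.9%, 32.4% and 31.8%; the values of control replicate 3 and 5 Gy x4 replicate 1 agree to within 0.1 points. Intergenic circles made up 58.6% to 60.4% in control and 59.4% to 60.4% in 5 Gy x4 (exact p = 0.371).

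Within length classes, 6 of 45 type shares (13.3%) were apart, 3 higher and 3 lower, each with an adjusted p of 0.214. The exonic share was higher within 330 to 419 bp, at 3.96%, 4.25%, 4.67% and 2.94% in control and 5.20%, 5.26%, 5.21% and 4.88% in 5 Gy x4, and also within 250 to 329 bp. The intergenic share of circles of 2000 to 9999 bp was lower, at 69.0%, 67.3%, 69.8% and 72.0% in control and 57.3%, 59.7%, 61.9% and 60.0% in 5 Gy x4.

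Across chromosomes, 8 of 21 shares (38.1%) had groups that did not overlap, 3 higher and 5 lower, each with an adjusted p of 0.075, so none passed 0.05 after adjustment. The largest of these was chromosome 12, with 3.63%, 3.57%, 2.96% and 4.75% of circles in control and 1.89%, 1.81%, 1.91% and 1.73% in 5 Gy x4. It was also apart among circles of other lengths than 330 to 419 bp, at 4.09%, 4.32%, 3.89% and 4.83% against 2.10%, 1.94%, 2.31% and 2.01%. Within 330 to 419 bp it was the 1 chromosome of 21 (4.76%) with groups apart, at 2.70%, 2.17%, 1.81% and 4.32% against 1.78%, 1.76%, 1.73% and 1.58%. There the exact p of 0.0286 became 0.450 after adjustment. Control replicate 3 (1.81%) and 5 Gy x4 replicate 1 (1.78%) lay close together, and the highest value was that of control replicate 4. Outside that class, 5 of 21 shares (23.8%) were apart, each with an adjusted exact p of 0.120. Chromosomes 2, 4 and 11 had higher shares, and 17, 19, 20 and X had lower ones beside 12.

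More genes carried a circle in 5 Gy x4. The control libraries had circles in 1563, 2672, 2781 and 1109 genes, and the 5 Gy x4 libraries in 5004, 7671, 7882 and 4529, a 3.09-fold difference (exact p = 0.0286; 4 of 4 measures of breadth, 100%, were apart). Without control replicate 4 the difference was 2.68-fold (exact p = 0.0571). Genes with 10 or more circles in a library numbered 1, 6, 3 and 1 in control and 27, 156, 155 and 17 in 5 Gy x4. Of the 5275 genes with a circle in a control library, 85.8% also had one in a 5 Gy x4 library, whereas 36.4% of the 12446 genes of the 5 Gy x4 group had one in control. Of 1715 genes with a circle in all 4 5 Gy x4 libraries, 400 had none in control. Of 254 genes with a circle in all 4 control libraries, 3 had none in 5 Gy x4. In total, gene circles were 4.69-fold more numerous in 5 Gy x4. These counts depend on that total and are not read as a result about the genes.

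Few genes had enough circles for a test. edgeR's quasi-likelihood test with TMM scaling was run on 15 genes, of which 9 (60.0%) passed an adjusted p of 0.05: 4 higher (26.7%) and 5 lower (33.3%). TMM moved the genes by a median of 0.28 on the log2 scale against plain library sizes, under which 2 were higher and 6 lower. With all eccDNA as the library size, 2 of 17 were higher and 7 lower, DESeq2 gave 5 and 2 of 15, a filter of 10 circles in 4 libraries gave 9 and 2 of 31, and no filter gave 4 and 0 of 14890. The split into higher and lower therefore depends on the scaling and the filter. Log2 folds below are on the TMM scale, and circles per 10000 eccDNA of a library are given beside them as a description.

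The 4 genes called higher, Luzp2, Astn2, Nrxn3 and Pard3b, had at most 4 circles in any control library. They entered the test only through irradiated libraries, so genes low in control could be tested only where they were high after irradiation, and their count is no support for a direction. In the fit of the 8 libraries alone only 2 genes could be tested, neither of them among these 4. Of the 5 genes called lower, only Apoo was tested there. The filter goes by share of a library, so those 5 may have passed it through control libraries, where their mean shares were higher. Their count is no support for a direction either. Luzp2, a leucine zipper gene best known from brain, had 1, 1, 2 and 0 circles in control and 11, 16, 26 and 16 in 5 Gy x4. Per 10000 eccDNA that is 1.27 ± 0.958 against 5.54 ± 1.82 (SD, n = 4 each), with groups apart (log2 fold 2.14, SE 0.60, adjusted p = 0.00305). Its circles lay between 111854059 and 113527175 on chromosome 1 of rn6. Astn2, which encodes an astrotactin of migrating neurons, had 1, 1, 4 and 0 circles in control and 17, 21, 26 and 12 in 5 Gy x4, also apart as a share (log2 fold 1.71, SE 0.52, adjusted p = 0.00462). A count of 0 allows up to 3 circles in such a library.

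Nrxn3, a presynaptic adhesion receptor, had 2, 2, 4 and 2 circles in control and 11, 32, 44 and 11 in 5 Gy x4 (log2 fold 1.28, adjusted p = 0.0322). Pard3b, a relative of the polarity protein Par3, had 2, 1, 4 and 1 in control and 17, 30, 26 and 4 in 5 Gy x4 (log2 fold 1.27, adjusted p = 0.0354). The shares of both overlapped between groups, and neither passed with plain library sizes (adjusted p = 0.0696 for Nrxn3 and 0.0966 for Pard3b) or with all eccDNA as the library size (0.0590 and 0.0934). Nrxn3 did not pass in DESeq2 (adjusted p = 0.843), and Pard3b did not pass without a filter (0.0755) or without control replicate 4 (0.0827). Without control replicate 2, neither passed (adjusted p = 0.0524 for Nrxn3 and 0.101 for Pard3b). Luzp2 and Astn2 passed in all 6 of the other settings that tested them. With 1 library left out, Luzp2 passed each time. Astn2 did not enter the test without 5 Gy x4 replicate 1 or without 5 Gy x4 replicate 4, and otherwise passed.

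Of the genes that fell, Apoo changed most. It encodes a subunit of the complex that shapes mitochondrial cristae and had 5, 20, 21 and 19 circles in control and 17, 12, 15 and 14 in 5 Gy x4, so its number stayed level where the total grew. As a share it went from 26.1 ± 18.4 to 5.15 ± 2.55 per 10000 eccDNA, with groups apart (log2 fold -2.01, SE 0.41, adjusted p = 7.40e-05); DESeq2 gave -1.59 and an adjusted p of 0.843, and the fit without a filter -0.92 and 0.514. Its circles differed from those of the other tested genes. They lay within 91.3 kb on chromosome X (63524652 to 63615963), giving 712 control and 635 5 Gy x4 circles per megabase of that span, where no other tested gene had over 78.1 in the summed libraries of either group. Their median length was 846 bp in control and 1290 bp in 5 Gy x4, only 7.69% and 10.3% were of 330 to 419 bp, and 24 of its 84 entries (28.6%) were found in 2 or more of the 8 libraries.

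Ighm, the heavy chain of immunoglobulin M, had 3, 10, 7 and 7 circles in control and 7, 10, 9 and 7 in 5 Gy x4 (10.8 ± 6.11 against 2.71 ± 0.731 per 10000 eccDNA, log2 fold -1.62, adjusted p = 4.21e-04). Its control circles had a median of 622 bp and those of 5 Gy x4 of 396 bp. St6galnac3 and Galnt17, both glycosyltransferases, had shares apart and log2 folds of -1.31 (adjusted p = 0.00462) and -0.93 (0.0416). Rbms3, an RNA-binding protein, fell by 0.86 on the log2 scale (adjusted p = 0.0413) with overlapping shares. These last calls are fragile: leaving out 1 library ended the call of Rbms3 in all 8 cases, with adjusted p up to 0.481, that of Galnt17 in 7 of 8, up to 0.366, and that of St6galnac3 in 6 of 8, up to 0.283. Ighm lost its call without a filter (log2 fold -0.50, adjusted p = 0.559), without control replicate 2 (adjusted p = 0.0524) or 5 Gy x4 replicate 3 (0.0538). In the fit of the 8 libraries alone, Ighm, St6galnac3, Galnt17 and Rbms3 were not tested. Their mean shares were higher in control, so their calls carry the limit of the filter given above.

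The gene with the most circles, Mycbp2, a ubiquitin ligase of axon development, did not pass. It had 11, 20, 25 and 3 circles in control and 58, 95, 87 and 39 in 5 Gy x4, or 19.1 ± 7.30 and 21.4 ± 3.37 per 10000 eccDNA (log2 fold 0.32, adjusted p = 0.290). The circles annotated to it spanned 6299.9 kb of chromosome 15, the widest span among the 15 tested genes. The bounds of the gene itself were not used here, so its rank may reflect the annotated span. Over this span 5 Gy x4 had 44.3 circles per megabase, in the range of 25.7 to 78.1 that the tested genes other than Apoo had. The phosphodiesterase gene Pde4d, with 2, 1, 6 and 0 circles in control and 10, 23, 18 and 17 in 5 Gy x4, was among the 12 genes with the most circles but was not tested.

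**Figure D5:**
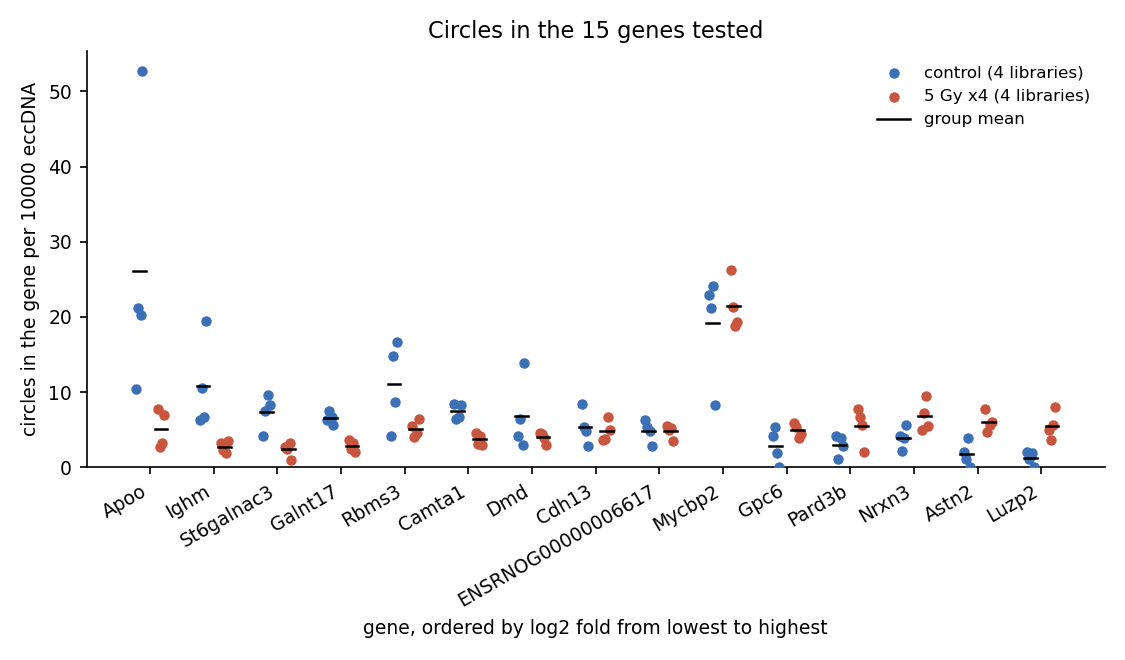
Circles in each of the 15 tested genes per 10000 eccDNA of a library, with genes ordered by log2 fold of 5 Gy x4 over control; points are libraries and lines group means. Apoo ranges from 10.4 to 52.8 in control and from 2.68 to 7.69 in 5 Gy x4, and Mycbp2 has overlapping values in both groups.

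Gene lists chosen for skin, muscle and radiation were described by their circles over all members, against 10877 gene circles in control and 50982 in 5 Gy x4, a ratio of 4.69. Circles are DNA and carry no expression, so the lists group genes that hold circles and name no cells or tissue. Of 33 symbols of epidermal keratinocytes, 22 had a circle; the list held 38 circles in control and 57 in 5 Gy x4, a ratio of 1.50. Its share of gene circles was 0.316% to 0.422% in control and 0.107% to 0.120% in 5 Gy x4. Krt5, the keratin of basal cells, had 0, 3, 1 and 2 circles in control and 1, 0, 3 and 3 in 5 Gy x4, Krt14, its partner, had 0, 2, 2 and 2 and 1, 1, 0 and 1, and Tchh, a protein of the hair follicle sheath, had 3, 2, 2 and 1 and 0, 1, 1 and 0. None of its members had enough circles for a test.

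Genes of the DNA damage response and repair held 41 circles in control and 155 in 5 Gy x4 (ratio 3.78), in 14 and 31 of the 32 members with a circle. Their share was 0.358% to 0.422% in control and 0.280% to 0.345% in 5 Gy x4. Wrn, a helicase of the RecQ family, had 0, 3, 0 and 1 circles in control and 4, 3, 3 and 4 in 5 Gy x4. Msh3, a mismatch repair gene, had 0, 3, 3 and 1 circles in control and 2, 2, 3 and 3 in 5 Gy x4.

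Collagen genes held 46 circles in control and 242 in 5 Gy x4 (ratio 5.26), with overlapping shares of 0.205% to 0.630% and 0.376% to 0.550%. Col14a1, a fibril-associated collagen of the dermis, had no circle in any control library and 1, 7, 7 and 4 in 5 Gy x4. Col24a1 had 2, 2, 0 and 0 in control and 3, 7, 7 and 7 in 5 Gy x4, and Col19a1 had 0, 1, 1 and 0 and 3, 9, 3 and 4. Receptors of growth factors and oncogenes gave 44 and 223 circles (ratio 5.07), led by the receptor kinases Alk, Erbb4 and Igf1r. Skeletal muscle genes gave 33 and 110 (ratio 3.33), and their 1 tested member, Dmd, did not pass (log2 fold -0.21, adjusted p = 0.687). Neb and Myh8 followed Dmd in number of circles.

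Genes of inflammation and immunity held 57 circles in control and 131 in 5 Gy x4 (ratio 2.30). Without Ighm, their most frequent member, the ratio was 3.27, from 30 and 98 circles; Themis and Tgfbr3 came next. The list of long neuronal and adhesion genes had the highest ratio, 6.94, from 180 and 1250 circles. It was drawn up with results on these libraries known, so it is no independent evidence of a direction. Of its 43 symbols, 6 were tested and 4 were higher, against 4 higher (26.7%) and 5 lower (33.3%) of all 15 tested genes. These 4 are the genes that entered the test only through irradiated libraries, so nothing is read from their number.

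Single circles were shared less between libraries of the 5 Gy x4 group than between those of control. On average, 9.63%, 6.90%, 5.84% and 14.5% of a control library's circles were listed in another control library, and 2.00%, 1.24%, 1.28% and 2.18% of a 5 Gy x4 library's circles in another of its group. The groups did not overlap (ratio 0.182, exact p = 0.0286; 4 of 4 such measures, 100%). Between groups, 10.2% of the control circles were also listed in 5 Gy x4 and 2.00% of the 5 Gy x4 circles in control. The shares depend on how many circles each library lists.

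A set of 20 circles was found in all 8 libraries. The circle that spans the mitochondrial genome (16311 bp) had 2288, 889, 1204 and 525 supporting reads in control and 6287, 5648, 4435 and 5028 in 5 Gy x4, with a mean coverage of 7160.2 to 49325 in control and 88989 to 134149 in 5 Gy x4. Every 5 Gy x4 library lay above every control library, 4.36-fold in reads (exact p = 0.0286). Neither value was scaled to a library's supporting reads, whose range was also higher in 5 Gy x4. As a share of supporting reads, this circle held 6.63% in control replicate 1 and 0.509% to 0.761% in the other control libraries. A rise relative to other circles therefore cannot be read from these numbers. Some of the circles in all 8 libraries lay within nuclear genes. An intronic circle of 1500 bp in Pkd2, a cation channel of primary cilia (chr14:6615218-6616717), had 36, 123, 57 and 75 reads in control and 51, 78, 69 and 186 in 5 Gy x4. Another of 39 bp in Polk, a DNA polymerase that copies past damage (chr2:27312873-27312911), had 100, 142, 112 and 24 and 6, 177, 161 and 63. Circles in introns of Mipep and Cnga3 and downstream of Tgm5 were also in all 8, as were intergenic ones on chromosomes 3, 7, 10 and 18. For Pkd2 and for Polk the reads of the groups overlapped.

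By supporting reads, the leading nuclear circles differed. The best supported in control was an intergenic circle of 391 bp (chr3:41542-41932), with 0, 9502, 5451 and 4110 reads in control and none in any 5 Gy x4 library. In 5 Gy x4 it was one of 735 bp (chr1:181259667-181260401), with 1741 reads in replicate 4 alone and 1188 in control replicate 3. A neighbouring circle of 1107 bp (chr1:180782889-180783995) had 478, 686, 1849 and 446 reads in control and 0, 336, 204 and 1175 in 5 Gy x4.

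In all 4 control libraries and in no 5 Gy x4 library there were 15 circles, out of 120 in all 4 control libraries. The reverse held for 3, out of 74 in all 4 5 Gy x4 libraries. Among the first were intronic circles in Hhat, which acylates Hedgehog proteins, with 24, 36, 99 and 28 reads, in Irs2, an adaptor of the insulin receptor, with 10, 24, 40 and 90, in Cnksr3, with 16, 13, 12 and 35, and in Pde6h, with 4, 9, 5 and 86. The 3 in 5 Gy x4 and no control library were an intergenic circle of 394 bp (chr9:86238507-86238900), with 58, 54, 88 and 32 reads, one of 473 bp in an intron of Man2a1, a mannosidase of the Golgi (chr9:112304877-112305349), with 15, 23, 9 and 2, and one of 6087 bp downstream of Dkc1, which encodes dyskerin (chrX:155838024-155844110), with 7, 93, 10 and 16. The circle of 394 bp and the one near Dkc1 were each also listed in 2 of the 4 libraries given 2 fractions. Of the named control circles, the one in Pde6h was listed in 2 of those libraries and the one in Hhat in 1. Those in Irs2 and Cnksr3 were in none of them. These sets were picked for their pattern and carry no test.

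The number of large circles did not pass the test. The list named 157 ecDNA, from 100639 to 9380201 bp long, of which 126 occurred in the 8 libraries. The control libraries held 26, 42, 49 and 33 and the 5 Gy x4 libraries 22, 34, 41 and 29, with wide overlap (ratio 0.840, exact p = 0.429). Per 1000 eccDNA reads, ecDNA reads numbered 29.7, 22.4, 21.8 and 68.1 in control and 15.3, 3.05, 3.33 and 7.25 in 5 Gy x4, the 1 of 4 ecDNA measures (25.0%) that was apart (exact p = 0.0286, adjusted 0.114). In all 8 libraries 7 ecDNA were found. Among them were 3 that overlap each other in an intergenic region of chromosome 1 and so are not independent. The interval 180493000 to 181352559 is listed more than once among these, with the same 1198 reads in control replicate 3. Another ecDNA in all 8 libraries spans 5 annotated genes on chromosome 20 (4628565 to 4795451), 3 of them of RT1, the rat's major histocompatibility complex. The longest ecDNA, of 9380201 bp on chromosome 3, had 6 reads in 1 5 Gy x4 library and none elsewhere among the 8.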

How the data were processed

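Circular DNA of 12 skin libraries had been enriched on plasmid columns, treated with exonuclease and tagmented, per the labels' protocols. The authors deposited whole-number counts of supporting reads per circle and library, with no normalization, and annotation tables with the calls of each library; the submitters' processing notes name BWA, Picard, bedtools and rn6, without versions, and the caller of circles is not given in the sources used here. Members and lists were chosen with earlier results of these data known. A circle was present with at least 1 read. Where a library had several calls in 1 entry, the last was kept, as in the count files; 329 calls were removed and 5 list cells of unequal length dropped.

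Length bins and genes were fitted over all 12 libraries with edgeR 4.0.16 (R 4.3.3), bins against all eccDNA and genes with TMM and filterByExpr, with DESeq2 1.42.0 as an alternative; the fits were tested on simulated data. Other measures had exact permutation tests over 8 libraries (Python 3.11.15) with Benjamini-Hochberg adjustment within a family. Overlaps used bedtools 2.31.1. Named genes were those past the threshold, the 12 with the most circles and the 3 leading members of each list, some of which are not reported here; named circles were those in most libraries, with most reads, or in all of 1 group and none of the other. Supporting reads per library are given in the report, and more reads give a more complete list of circles. Replicate numbers were not treated as pairs in the main tests. Correlations of same-numbered libraries ran from -0.295 to 0.0769 over length bins and were 0.513, 0.366, -0.225 and -0.190 over chromosomes. Not every pair exceeded 0.1, but so few correlations cannot decide whether the libraries are paired.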

Additional observations from a re-analysis of the deposited data

Results flagged for a closer look

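In 15 of 346 groups of 4 libraries examined, 1 library lay far from the others by Dixon's criterion; chance gives about 1 in 20. Control replicate 4 accounted for 8. In it 34.2% of circles had a supporting read pair (19.5% to 20.6% in the others), 32.8% did so at 330 to 419 bp (10.9% to 12.1%), 47.1% were labelled hconf (36.9% to 38.3%) and 2.36% were exonic (3.73% to 3.81%). It held 161 circles of coverage under 5 (2219 to 2469), and at 330 to 419 bp its median coverage was 34.6 (2.43 to 6.56) and its coverage per supporting read 2.57 (0.823 to 1.11). At 1000 to 1999 bp its coverage per supporting read was 2.16 (3.39 to 3.63).

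In 5 Gy x4 replicate 3 the median coverage per supporting read was 1.03 (0.783 to 0.811 in the others), 1.13 at 250 to 329 bp (0.921 to 0.951) and 0.874 at 330 to 419 bp (0.729 to 0.735), and the median circle score at 10000 bp or more was 18 (0 in the others). In control replicate 1 the mitochondrial circle held 6.63% of supporting reads (0.509% to 0.761%), circles of 10000 bp or more held 9.25% (4.87% to 5.46%), and the median coverage continuity value at 1000 to 1999 bp was 0.00268 (0 in the others).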

How the results depend on the processing

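The search of sequence at circle ends was not run, since it needs the rn6 genome. Several alternatives ended a call or changed a count by over 1.5 times. For the number of circles, coverage limits chosen after the data were seen gave 1.71 at 10 or more, and at 20 or more and 50 or more the direction reversed, to 0.906 and 0.497. Within 330 to 419 bp, coverage per supporting read gave a ratio of 0.564 (exact p = 0.0571) and circle score per split read 1.06 (exact p = 0.114); among circles of 1 library only, the ratio for circles with a read pair was 0.661 (exact p = 0.0571). With hconf entries only, 3 type shares within length classes were apart. Chromosome shares that were apart numbered 5 at 5 or more reads, 1 within 330 to 419 bp and 5 outside it. Length bins gave 45 calls with TMM, 36 with DESeq2 and 41 of 45 bins of 20 bp, where fewer bins were tested. Genes gave 4 calls of 14890 without a filter and 1 of 2 in the 8 libraries alone, where fewer could be tested; without a filter Galnt17 and Rbms3 turned to 0.18 and 0.25 on the log2 scale. The replicate block, an exact sign-flip test over 4 pairs, cannot go under p = 0.125, which it gave for the folds of 4.71 (number of circles), 0.430 (coverage per read), 0.405 (circles with a read pair), 1.13 (score per split read), 0.309 (reads on the 100 best circles), 2.48 (reads at 330 to 419 bp), 3.09 (genes) and 0.182 (sharing); in edgeR it gave 73 length bins and 8 genes, Galnt17 being lost. Whether replicate numbers pair libraries is not known.

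Leaving out each library in turn gave 4.05 to 5.59 for the number of circles, 0.383 to 0.514 for coverage per supporting read, 0.383 to 0.477 for circles with a read pair, 1.09 to 1.15 for score per split read, 0.284 to 0.363 for reads on the 100 best circles, 2.27 to 2.67 for reads at 330 to 419 bp, 2.68 to 3.52 for genes, 0.162 to 0.225 for sharing and 0.756 to 0.936 for ecDNA. Counts ran from 64 to 78 for length bins, 5 (without control replicate 2) to 12 for genes, 6 to 9 for types within length classes, 8 to 12 for chromosomes and stayed at 9 for length classes. The precision is limited by 4 libraries a group and by supporting reads that differ in number.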
